A study of Mus musculus with 18 samples.

Results

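The comparison described here asks how the messenger RNA of fibroblasts with a disrupted LINC complex differed between a stiff and a soft substrate. It rests on 6 of the 18 libraries of the series: 3 of SUN1L cells on 308 kPa gels and 3 of SUN1L cells on 1 kPa gels, chosen by their labels alone. SUN1L cells are NIH 3T3 Tet-On mouse fibroblasts that carry an inducible SS-HA-Sun1L-KDEL construct, the lumenal domain of the nuclear envelope protein SUN1 held in the endoplasmic reticulum, which acts as a dominant negative. The cells for comparison, called KDEL, carry inducible SS-GFP-KDEL instead, with 3 libraries on each gel. All 12 libraries come from cells seeded on fibronectin-coated polyacrylamide gels and given 1 μg/ml doxycycline for 48 hr without any inhibitor, so that no group was free of construct or inducer. Both lines were made by retroviral transduction and drug selection, and the methods report fluorescence sorting for the KDEL cells only. Whether either line is 1 clone is not given in the sources used here.

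The LINC complex joins the cytoskeleton to the nuclear lamina: SUN proteins of the inner nuclear membrane bind nesprins of the outer membrane across the perinuclear space, and nesprins bind actin, intermediate filaments or motors. Fibroblasts on stiff substrates are known to spread, to build focal adhesions and stress fibres, and to send the coactivators MRTF and YAP into the nucleus, where they raise transcription of actin cytoskeleton and matrix genes. Many transcripts of these programmes were well measured in the SUN1L libraries.

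The table gives a normalized signal per gene and library, and 16021 of 22019 genes lay above its lowest value of 1 in at least 3 of the libraries. The 6 SUN1L libraries held an estimated 12670000 to 18970000 read pairs, at 1.70 to 2.49 signal units per pair. The libraries are named by their serial numbers, which fall into runs: run 1 holds libraries 3 (soft) and 7 (stiff), run 2 holds 15 and 19, and run 3 holds 27 and 31. Libraries 3 and 7 stood apart from the other 4. The mean log2 level of 50 mitosis genes was 8.28 in library 3 and 8.50 in library 7, against 10.93 to 11.38 in the others, and of the KDEL libraries on the same gels only library 8 (stiff, run 1) was as low, at 8.75. The SD of the log2 differences between a stiff and a soft library over 8010 genes above the median level was 0.18 to 0.25 within runs and 0.32 to 0.72 across runs.

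The construct was present on both gels. Sun1, whose lumenal part the construct carries, had a signal of 82617, 63551 and 48167 in the soft and 73357, 54072 and 38452 in the stiff SUN1L libraries of runs 1 to 3, against 2785 to 3496 in the 6 KDEL libraries. It was lower on the stiff gel in each run, with a log2 difference of -0.24 (SE 0.24) and an unadjusted limma p of 0.34. Fibroblast markers were abundant, with a Col1a2 signal of 92136 to 128510 and a Vim signal of 41866 to 136240 in the 6 libraries. Of the 16 fibroblast markers in the list 15 passed the filter, and Lum stayed near the lowest value, at 1 to 5.44. None of the epithelial, endothelial or immune markers lay above the median level, while 1 muscle marker (Tnnt2) and 1 adipocyte marker (Lpl) did, with log2 differences of -0.03 (SE 1.10) and 0.40 (SE 0.26). Of 7 immune markers tested 5 were higher on the stiff gel, with a median log2 difference of 0.49, and of 0.97 in run 3. Ptprc, which defines leukocytes, had a signal of 1 to 11.7. Csf1r, a macrophage receptor, had 66.5, 86.2 and 65.8 on the soft and 85.0, 227 and 277 on the stiff gel of runs 1 to 3, and the part of cells of these kinds in the results was not tested.

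No gene was called between stiff and soft gels in SUN1L cells. With calls defined by limma's Benjamini-Hochberg adjusted p (under 0.05) together with a 2-fold minimum, 0 of 16021 genes (0%) were called, and the smallest adjusted p was 1. With a block on the runs the count was again 0, with a smallest adjusted p of 0.463. At an unadjusted limma p under 0.05 there were 310 genes (1.93%), of which 100 were higher (0.624%) and 210 lower (1.31%) on the stiff gel. With the block there were 884, of which 268 were higher (1.67%) and 616 lower (3.84%). No gene passed after adjustment in either fit, and the counts are given as a description. Without library 31 the count at an unadjusted p under 0.05 was 703, and it lay between 284 and 437 without any other SUN1L library.

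The differences were small where genes were well measured. Among the 8010 genes above the median level, the absolute log2 difference had a median of 0.09, a 90th percentile of 0.24 and a 99th percentile of 0.41, beside a median SE of 0.19 without and 0.12 with the block. At least a 2-fold difference was reached by 230 genes (1.44%), 109 higher (0.68%) and 121 lower (0.755%), and only 1 of them, Scara5, lay above the median level (0.0125% of the genes there). The number was 367 to 657 with any 1 SUN1L library left out, and 27 with a pseudocount of 8. Scara5, a scavenger receptor that marks subsets of fibroblasts, had a signal of 2595, 3658 and 633 on the soft and 1481, 2013 and 210 on the stiff gel of runs 1 to 3. It was lower on the stiff gel in every run, but the groups overlapped, and the log2 difference of -1.08 (SE 0.96) had an unadjusted limma p of 0.286. Without library 31 it was -0.07, and without library 15 it was -0.58. Scara5 was singled out after its values were seen.

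Although no gene passed the test, a number of transcripts had the same direction in all 3 runs, among them the transcription regulators Id3 and Snai1, which were lower on the stiff gel. Id3, an inhibitor of basic helix-loop-helix transcription factors induced by BMP and TGF-beta signals (chromosome 4, 136143497 to 136145755, plus strand, GRCm38), had a signal of 7115, 9023 and 7354 on the soft gel and 4797, 6247 and 5710 on the stiff gel of runs 1 to 3. All stiff libraries lay below all soft ones, with a log2 difference of -0.49 (SE 0.15), an unadjusted limma p of 0.00724 and, with the block, of 0.00011 (adjusted p 0.463). Snai1, a zinc finger repressor of epithelial genes (chromosome 2, 167538195 to 167542814, plus strand), had 3616, 3696 and 2395 on the soft and 2241, 2376 and 1423 on the stiff gel. The groups did not overlap here either, and the log2 difference of -0.69 (SE 0.27) had an unadjusted limma p of 0.0275, or 0.000212 with the block. Groups that did not overlap were found for 271 genes higher (1.69%) and 493 lower (3.08%) of all genes tested, and for 1.36% and 3.26% of the genes above the median level.

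Phldb1, or LL5-alpha, which anchors microtubule ends near the basal cortex (chromosome 9, 44686304 to 44735198, minus strand), had 4873, 5586 and 4795 on the soft and 3151, 3746 and 3585 on the stiff gel. The groups did not overlap, and at 4.61e-05 its p was the smallest of the named genes with the block. Rtkn (rhotekin) had 1014, 1283 and 1562 on the soft and 770, 863 and 996 on the stiff gel, a log2 difference of -0.54 (SE 0.17). Cdc42ep4, an effector of Cdc42, had 1080, 1204 and 1181 on the soft against 733, 788 and 1028 on the stiff gel. Every soft library was above every stiff one for both. Smtn (smoothelin), an actin-binding protein of smooth muscle, had a log2 difference of -0.43 (SE 0.17).

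Srebf1, which drives fatty acid synthesis, had the smallest SE of the lower named genes, with signals of 2806, 2824 and 2820 on the soft and 2034, 2278 and 2140 on the stiff gel. Its log2 difference was -0.39 (SE 0.09), with an unadjusted limma p of 0.00144 and an adjusted p of 1. After the adjustment for GC content described below it was -0.22 (SE 0.12), with an unadjusted limma p of 0.0886. Rhbdf1 (iRhom1), which guides the sheddase ADAM17, had 5096, 5022 and 5358 against 3563, 4031 and 4149. The log2 difference of Rhbdf1 was -0.40 as deposited and -0.20 after that adjustment, with unadjusted limma p-values of 0.00135 and 0.0654. Tcf7l1, a repressor of Wnt target genes, had 1485, 1291 and 1243 against 983, 830 and 790. None of these 3 genes had overlapping groups. The other named genes that were lower, Trim47, Col27a1, Sppl2b, C77080, Tmem150a and Capn15, had log2 differences between -0.59 and -0.42.

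As deposited, fewer transcripts were higher than lower on the stiff gel with the same regularity, a split that turned after adjustment for base composition. The rule on size named 12 genes a direction, from 13 higher and 89 lower genes that passed its filters above the median level. Maoa, the mitochondrial monoamine oxidase A (chromosome X, 16619698 to 16687818, plus strand), had 1955, 3195 and 3235 on the soft and 3438, 4500 and 4557 on the stiff gel of runs 1 to 3. All stiff libraries lay above all soft ones, with a log2 difference of 0.60 (SE 0.21) and an unadjusted limma p of 0.0157. Gsta4, a glutathione transferase that clears lipid peroxidation products (chromosome 9, 78191966 to 78209348, plus strand), had 3699, 3685 and 2565 on the soft and 4964, 5030 and 3494 on the stiff gel. The groups overlapped through run 3, but the difference within runs was even, at 0.42, 0.45 and 0.45 on the log2 scale, with an unadjusted limma p of 0.0603, or 0.000163 with the block.

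Mpp1, a membrane scaffold protein of the MAGUK family, had 2274, 2987 and 2927 on the soft and 3244, 4075 and 3779 on the stiff gel. Esd (esterase D) had 19185, 17299 and 16247 against 22790, 20711 and 22487, a log2 difference of 0.33 (SE 0.14). The groups of both genes did not overlap. The other genes named for size, Sqrdl, Spg21, Fam118b, Hsd17b11, Mtr, Smad2, Lrpprc, Atl2 and Polr2b, lay between 0.22 and 0.33 on the log2 scale, and Snrpd3, Ly6a, Rps24, Cyb5a and Pbld1, named for their p with the block, between 0.39 and 0.50. Pbld1 had 487, 687 and 1456 against 542, 967 and 2632, and without library 31 its log2 difference turned to -0.12.

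**Figure D1:**
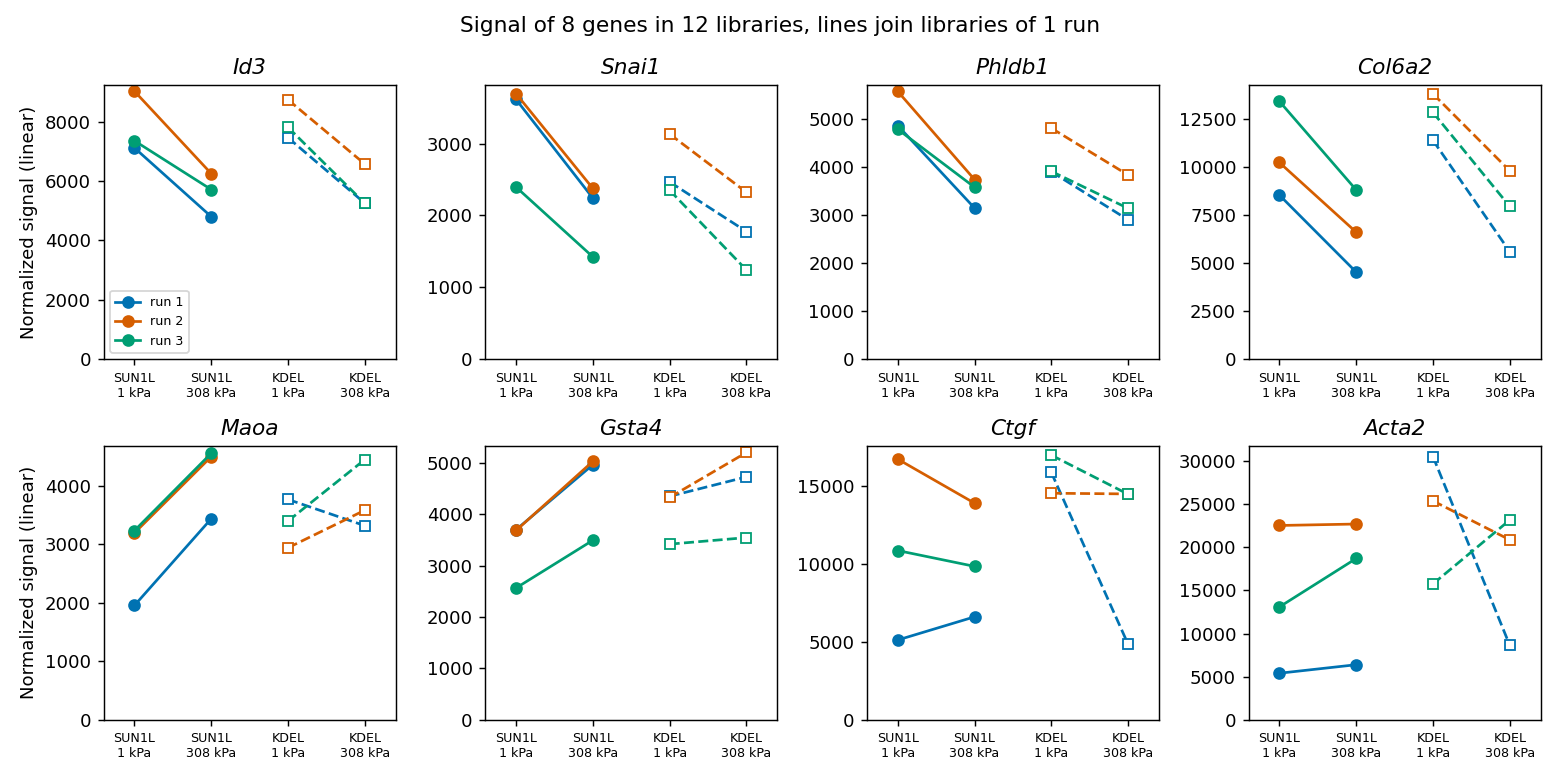
Normalized signal (linear axis from 0) of 8 genes in the 12 libraries of SUN1L cells (filled circles, solid lines) and KDEL cells (open squares, dashed lines) on 1 kPa and 308 kPa gels, with a line joining the soft and the stiff library of each run. Id3, Snai1, Phldb1 and Col6a2 were lower on the stiff gel in each run of both lines, Maoa and Gsta4 were higher in each SUN1L run, and Ctgf and Acta2 differed more between runs than between gels in SUN1L cells.

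The transcripts that differed in 1 direction also differed in base composition. The median GC content of the longest coding transcript was 58.3% for the 210 genes lower at an unadjusted p under 0.05, 49.2% for the 100 higher genes and 50.5% for all genes tested. To show the 2 ends, 120 bases from the middle of the coding region are printed 5′ to 3′ for the named genes of lowest and highest transcript GC content, Maoa (40.4%) and Trim47 (64.1%, a ubiquitin ligase of the TRIM family, lower on the stiff gel), from GENCODE vM1 transcripts of NCBIM37, with G and C in capitals.
Maoa: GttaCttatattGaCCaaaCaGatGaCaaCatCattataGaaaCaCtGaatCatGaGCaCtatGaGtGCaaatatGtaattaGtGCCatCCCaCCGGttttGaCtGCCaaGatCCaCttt
Trim47: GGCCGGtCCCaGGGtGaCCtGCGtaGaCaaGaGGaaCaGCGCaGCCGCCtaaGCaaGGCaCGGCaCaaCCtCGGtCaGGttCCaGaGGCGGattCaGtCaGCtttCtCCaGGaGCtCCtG
The stretches are bases 873 to 992 and 930 to 1049 of the transcripts, of genes on chromosome X and on chromosome 11 (116105752 to 116127210, minus strand, GRCm38), and hold 37.5% and 62.5% G and C. Trim47 had 3267, 4662 and 5340 on the soft and 1916, 3142 and 4120 on the stiff gel.

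The relation to GC content was found in 2 of the 3 runs. Over 7951 genes above the median level, the correlation between the GC content and the log2 difference within a run was -0.71 in run 1, -0.50 in run 2 and 0.08 in run 3, and -0.02, -0.37 and 0.05 in the KDEL cells. It is a correlation across genes, which share their libraries and are not replicates. In the highest of 5 equal bins of GC content (55.8 to 71.7%) the median difference was -0.26, -0.20 and -0.03 in runs 1 to 3, and 50.8% of these genes were lower in all 3 runs, against 12.1% in the middle bin. Whether the base composition stands for the gel, the library preparation or the sequencing cannot be told apart here. Values after a per-library adjustment for GC content (GC-adjusted, an alternative chosen after the data were seen) are therefore given beside part of the results. A result printed only as deposited may also have moved with this adjustment. After it, 180 genes had an unadjusted limma p under 0.05, 106 higher (0.682%) and 74 lower (0.476%), and no gene was called. With the block there were 264 higher (1.7%) and 202 lower (1.3%), so that the direction of the split was opposite to that as deposited.

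**Figure D2:**
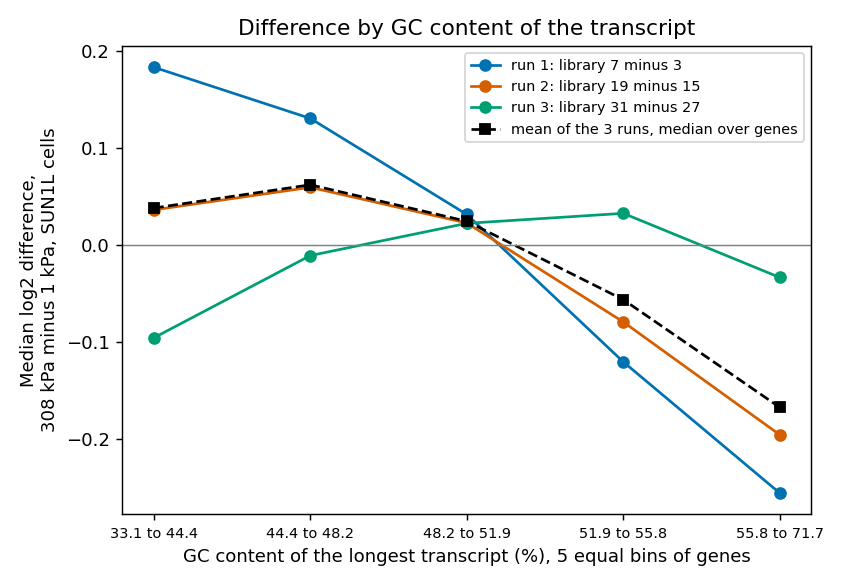
Median log2 difference between the stiff and the soft SUN1L library of each run (coloured lines) and of the mean over runs (black dashes) for 5 equal bins of genes by GC content of the longest transcript (%). Run 1 went from 0.18 in the lowest to -0.26 in the highest bin and run 2 from 0.04 to -0.20, while run 3 lay between -0.10 and 0.03.

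The named genes mostly kept their direction after the adjustment. Of 15 lower named genes, 14 were lower in all 3 runs GC-adjusted, and of 18 higher ones all 18 were higher. The rule had chosen them for their direction as deposited, so these counts support nothing. Id3 was lower by a GC-adjusted log2 difference of -0.38, -0.40 and -0.39 in runs 1 to 3, and Phldb1 of -0.32, -0.35 and -0.35. Gsta4 was at 0.39, 0.42 and 0.41. These genes were among the most even, and others moved more. Capn15 went from -0.42 as deposited to -0.21 GC-adjusted, with 0.01 in run 1, and C77080 went from -0.45 to -0.24. Snai1 went from -0.69 to -0.50, and its unadjusted limma p from 0.0275 to 0.155. Among the higher genes, Maoa moved little, from 0.60 to 0.57. With the block, 9 of the 15 lower and 17 of the 18 higher named genes were still at an unadjusted limma p under 0.05.

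Genes of TGF-beta and BMP signalling were mostly lower on the stiff gel. Ligands of this family bind serine kinase receptors that phosphorylate SMAD proteins, latent binding proteins hold TGF-beta in the matrix, and Id1, Id2, Id3, Smad6 and Smad7 are among the direct target genes, the SMADs among them acting as inhibitors. Of 23 genes in the list, 18 were lower and 5 higher, with a median log2 difference of -0.27, against -0.01 over all genes, of which 47.7% were higher and 52.3% lower. Without library 31 the median was -0.11, without library 3 it was -0.18, and it lay between -0.30 and -0.19 without any other SUN1L library. No member was called, 14 (60.9%) were lower in all 3 runs, against 16% of all genes, and 10 members were lower and 1 higher at an unadjusted limma p under 0.05 with the block, against 3.84% and 1.67% of all genes. GC-adjusted, the median was -0.13, and 11 members (47.8%) were lower in all runs, against 14% of all genes. The counts with the block were then 4 and 1, against 1.3% lower and 1.7% higher over all genes. The list, like the others, was chosen with earlier results of these data known, so the shares are a description. Target genes of the same signals can move together, so that their number is not a number of independent results.

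Among the target genes, Id1 had 5107, 5485 and 5479 on the soft and 3411, 4327 and 5316 on the stiff gel, so that run 3 hardly differed. Id2 had 3812, 3679 and 2682 against 3071, 3109 and 2242, a log2 difference of -0.27 (SE 0.24). Smad7 had 4401, 4910 and 4125 against 3451, 4011 and 3548, with groups that did not overlap, and Smad6 had 1641, 2332 and 1138 against 1410, 1619 and 966. Each of the 3 Id genes and both inhibitory SMADs was lower in each run as deposited. GC-adjusted, Smad6 was at 0.11 in run 1.

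The ligand Tgfb3 had 2484, 2752 and 3069 on the soft and 2208, 2153 and 2023 on the stiff gel, again without overlap. Ltbp4, a latent TGF-beta binding protein, had 2318, 2354 and 2047 against 1732, 1803 and 1315, a log2 difference of -0.48 (SE 0.22), or -0.25 GC-adjusted. Of the signal transducers, Smad2 went the other way, at 1410, 1700 and 1684 against 1754, 1983 and 1961, while Smad3 and Smad4 had log2 differences of -0.22 and -0.20. The receptors Tgfbr1, Tgfbr2 and Tgfbr3 lay between -0.10 and 0.04 and did not keep 1 direction over the runs.

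Collagens, the main fibres of the matrix, were lower for 17 of 22 genes, with a median log2 difference of -0.22. No member was called, 12 (54.5%) were lower and 0 higher in all 3 runs, against 16% and 13.1% of all genes, and 6 were lower at an unadjusted limma p under 0.05 with the block, against 3.84% of all genes. The 2 members with the largest differences were chains of collagen VI, a beaded filament around cells. Col6a2 (chromosome 10, 76595762 to 76623630, minus strand) had 8548, 10246 and 13435 on the soft and 4532, 6612 and 8816 on the stiff gel, a log2 difference of -0.72 (SE 0.27), with an unadjusted limma p of 0.0228 and, with the block, of 0.00138. Its neighbour Col6a1 (chromosome 10, 76708792 to 76726168, minus strand) had 12340, 14776 and 18661 against 7074, 10727 and 12843. In both genes each stiff library was below the soft one of its run, while the groups overlapped.

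The fibrillar chains were less even. Col3a1 had 22663, 8836 and 6435 on the soft and 12671, 7443 and 4201 on the stiff gel, and Col5a1 had 22902, 13674 and 12098 against 16645, 10004 and 9485. Col1a1, a chain of collagen I, had a log2 difference of -0.20 as deposited and of -0.02 GC-adjusted, and Col1a2 was at -0.07. GC-adjusted, the median of the list was -0.08, 8 members (36.4%) were lower in all runs, against 14% of all genes, and 3 were lower with the block, against 1.3%, while Col6a2 was at -0.60 and Col6a1 at -0.47. Decorin (Dcn), a small proteoglycan that binds collagen, had 1662, 1057 and 637 against 1150, 821 and 537, an unadjusted limma p of 0.417 that was 0.00341 with the block.

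Enzymes of matrix crosslinking and turnover had a median of -0.11 over 28 genes, 19 of them lower. Loxl3, a lysyl oxidase, had 4323, 6824 and 7865 on the soft and 3130, 5650.3 and 6019 on the stiff gel. Mmp14, the membrane collagenase, had 7778, 6980 and 7458 against 6539, 5610 and 6601, with no overlap and a log2 difference of -0.25 (SE 0.11). Lox itself was at 0.04 (SE 0.41). Without library 7 the median of the list was 0.0068. Matrix glycoproteins, the adhesive proteins between the fibres, were lower for 25 of 32 genes, with a median of -0.11, and 11 (34.4%) were lower in all 3 runs, against 16% of all genes. GC-adjusted the median was -0.07 and 8 (25%) were lower in all runs, against 14% of all genes. The median turned to 0.055 without library 31.

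Targets of SRF with its coactivator MRTF, which encode actins and their binding proteins, showed no common direction. Of 28 genes 13 were higher and 15 lower, with a median log2 difference of -0.02 (0.01 GC-adjusted) and medians of -0.06, -0.09 and 0.11 in runs 1 to 3. The median of the list was -0.24 without library 3, 0.26 without library 7 and 0.01 without both. Acta2, the smooth muscle actin of contractile fibroblasts, had 5400, 22540 and 13090 on the soft and 6388, 22709 and 18713 on the stiff gel, so that the runs differed by more than the gels. Its log2 difference of 0.26 had a 95% interval from -1.09 to 1.60, and was -0.30 without library 3 and -0.10 without library 19. Actg1, a cytoplasmic actin, had 32587, 74240 and 82373 against 28436, 68985 and 95612, with an interval from -1.20 to 1.15, and was at 0.055 without libraries 3 and 7 together, and at 0.14, 0.22 or 0.48 without library 15, 27 or 7. Intervals of this width do not show that the gels acted alike.

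Targets of YAP with TEAD were lower for 15 of 21 genes, with a median of -0.06 that turned to 0.047 without library 31 and 0.0034 without library 15. Ctgf, the most used reporter of YAP activity and a matrix protein, had 5127, 16751 and 10876 on the soft and 6616, 13922 and 9859 on the stiff gel, higher in run 1 and lower in runs 2 and 3, and its log2 difference of -0.01 turned to 0.37, 0.06 or 0.26 without library 15, 27 or 7. Cyr61, a related matrix protein, had 10086, 12801 and 7889 against 8515, 10291 and 9260, with a 95% interval of the log2 difference from -0.66 to 0.44, and a value of 0.064 without library 15. Ankrd1, a nuclear cofactor in stretched muscle, was at 0.22 (SE 0.17). The lowest p of the list with the block belonged to Arhgef17, at 0.0089 with a log2 difference of -0.30 that was -0.14 GC-adjusted.

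Focal adhesion genes were slightly lower, 21 of 27, with a median of -0.10, and 14 of them (51.9%) were lower in all 3 runs, against 16% of all genes. The median of the list was between -0.20 and -0.02 with each SUN1L library left out in turn. Paxillin (Pxn), a scaffold, had 3400, 4158 and 4119 on the soft and 2683, 3623 and 3631 on the stiff gel, and Vasp, which elongates actin filaments, had 2390, 2538 and 2774 against 1946, 2319 and 2404. GC-adjusted their log2 differences were -0.08 and -0.05, and 8 of the 27 (29.6%) were lower in all runs, against 14% of all genes. Among 17 integrin genes the median was -0.16, from 0.07 and 0.10 in runs 1 and 2 to -0.47 in run 3, and it was -0.02 without library 31 and -0.35 without library 19. Itgb3, a subunit of the vitronectin receptor, had 411, 1535 and 1332 against 297, 836 and 550, and Itga5, of the fibronectin receptor, 4590, 8244 and 8164 against 3576, 6680 and 5901. Both were lower in each run, with unadjusted limma p-values of 0.0125 and 0.0317 with the block. GC-adjusted, the median of the integrins was -0.13. The number lower at an unadjusted limma p under 0.05 with the block was then 1, against 2 as deposited.

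Nuclear envelope genes, the site of the LINC complex, had a median of -0.02 over 21 genes, the construct's own Sun1 included. Lmna, which encodes lamins A and C and is known to scale with tissue stiffness, had 19321, 26114 and 30014 on the soft and 12029, 20674 and 25905 on the stiff gel. It was lower on the stiff gel in each run, with a log2 difference of -0.41 (SE 0.29), or -0.23 GC-adjusted, and an unadjusted limma p of 0.178. Syne1 and Syne2, the large nesprins, were at -0.02 (SE 0.42) and 0.19 (SE 0.34).

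Genes of cell division were the list with the most members higher on the stiff gel. Of 50 mitosis genes 48 were higher, with a median log2 difference of 0.24 and of 0.27, 0.31 and 0.17 in runs 1 to 3, and 35 (70%) were higher and 0 lower in all 3 runs, against 13.1% and 16% of all genes. No member was called or had an unadjusted limma p under 0.05, with or without the block. The spread in both fits also came from KDEL cells, with a mean log2 level of 11.38 in library 4 and 8.75 in library 8. Cdk1, the kinase that drives entry into mitosis, had 607, 3372 and 4231 on the soft and 851, 4390 and 5581 on the stiff gel, and Mki67, a coat protein of mitotic chromosomes, 822, 8365 and 11013 against 993, 11489 and 13253. The spread between runs was far wider than the gap between gels: the log2 difference of Mki67 was 0.33 (SE 1.25). Without libraries 3 and 7 together the median of the list was 0.225, with 49 of 50 higher. Leaving out only 1 library, which parts the soft and the stiff library of its run, turned directions. The median of the list was then -0.73, -0.18 or -0.25 without library 3, 19 or 31, and 0.67 to 1.19 without any other SUN1L library. Without library 3, 19 or 31 the difference of Mki67 was -0.85, -0.22 or -0.32, and that of Cdk1 was -0.46 without library 3 and -0.09 without library 31. GC-adjusted, 48 of 50 were again higher, against 50.3% of all genes, with a median of 0.22. These genes rise and fall together with the share of dividing cells, so that their number is not a number of independent results, and in bulk samples more dividing cells and more RNA per dividing cell cannot be told apart.

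Genes of DNA replication went the same way, 36 of 42 higher with a median of 0.17, and 26 (61.9%) higher in all 3 runs, against 13.1% of all genes. Within runs 1 to 3 the median of the list was 0.10, 0.18 and 0.19. Without libraries 3 and 7 together it was 0.18, with 38 of 42 higher. Leaving out 1 library, which parts the pair of a run, gave -0.47 without library 3, -0.12 without library 19 and -0.23 without library 31. It gave 0.39 to 0.74 without any other SUN1L library. Tyms, which makes thymidylate, had 405, 1347 and 1703 on the soft and 539, 1747 and 2212 on the stiff gel, and Gins4, of a complex within the replicative helicase, 795, 1136 and 1463 against 911, 1326 and 1973. Tyms was at -0.25 without library 3 and at -0.01 without library 31. In KDEL cells the medians of the mitosis list in runs 1 to 3 were -2.64, -0.08 and 0.17, where library 8 of run 1 stood apart and its soft partner did not.

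**Figure D3:**
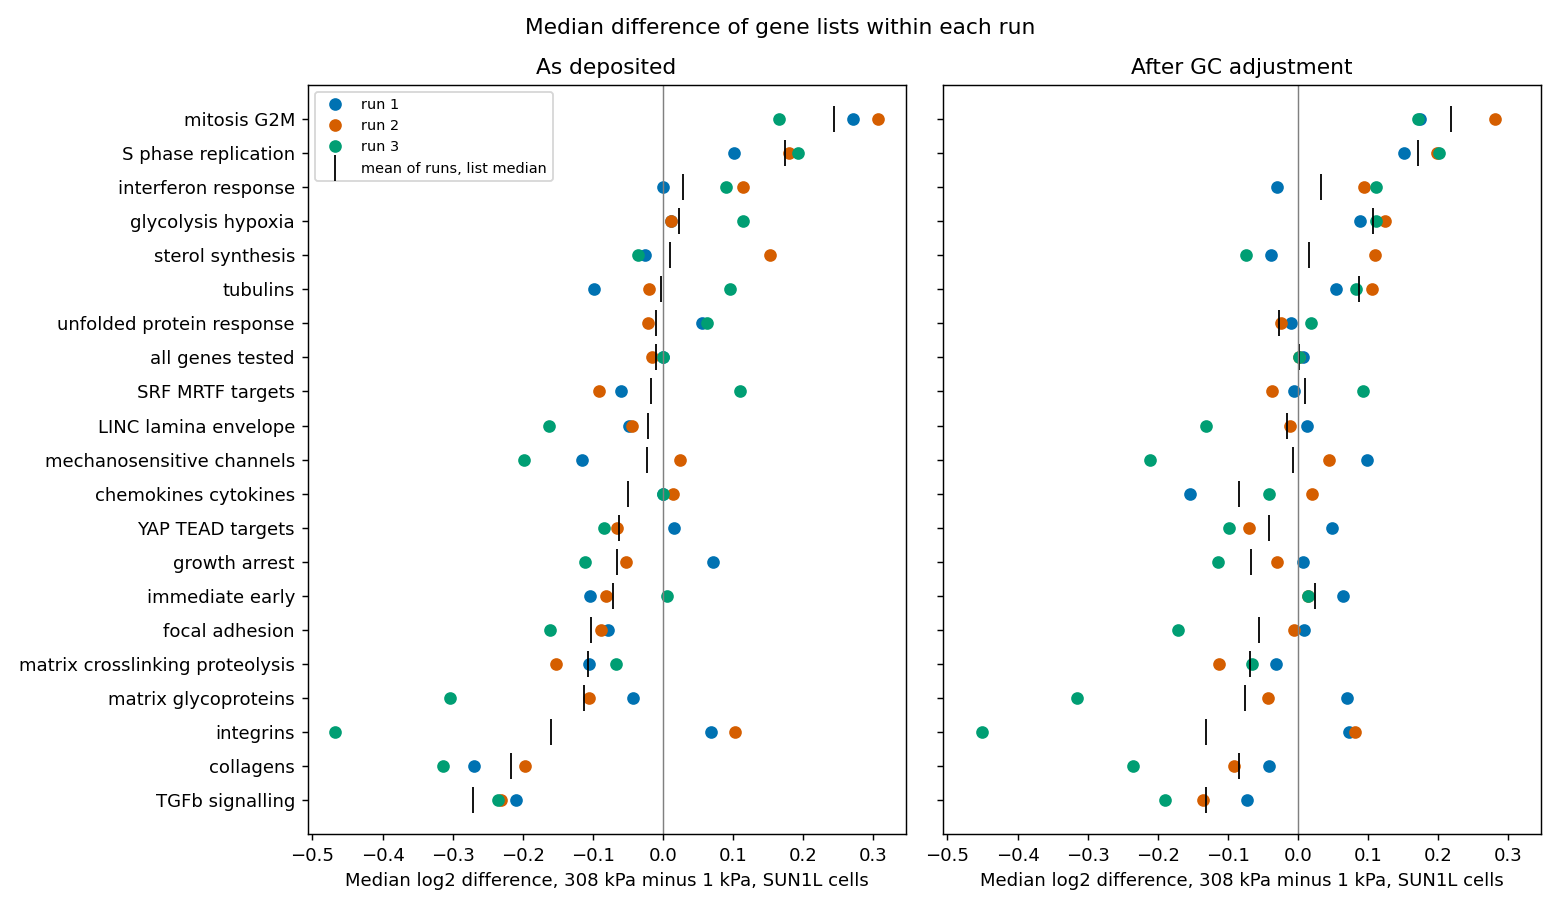
Median log2 difference (308 kPa minus 1 kPa, SUN1L cells) of the gene lists described and of all genes tested within runs 1 to 3 (coloured points), and median over the list of the mean of the runs (black bar), as deposited (left) and GC-adjusted (right). Mitosis and S phase genes lay above 0 and TGF-beta signalling genes and collagens below 0 in each run on both sides. The last pair lay closer to 0 after adjustment in each run.

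**Figure D4:**
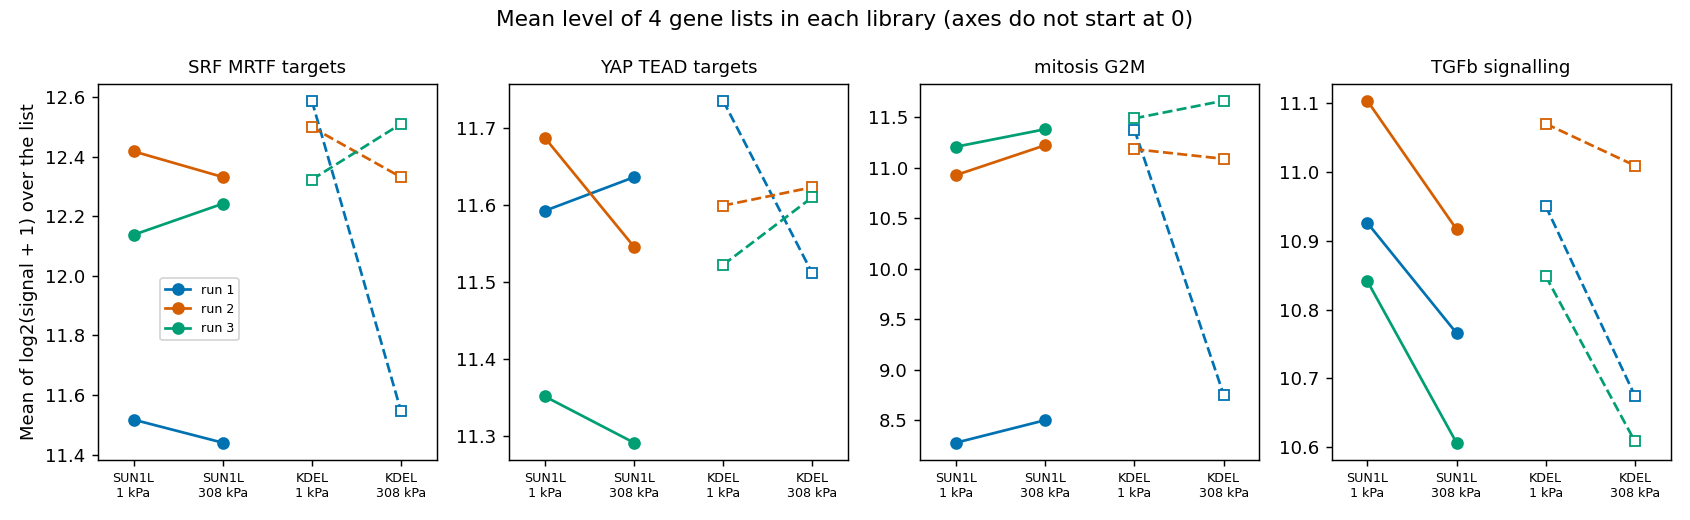
Mean log2(signal + 1) over 4 gene lists in each of the 12 libraries (axes do not start at 0), with lines joining the soft and the stiff library of a run, SUN1L cells in filled circles and KDEL cells in open squares. The mitosis list was at 8.28 and 8.50 in libraries 3 and 7, and the TGF-beta list was lower on the stiff gel in each run of both lines.

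Sterol synthesis genes had a median log2 difference of 0.01 with 12 of 24 higher, and tubulins of 0.00 with 8 of 16 higher. Leaving out 1 library of run 1 moved both medians, to -0.59 and -0.33 without library 3 and to 0.57 and 0.36 without library 7. Without libraries 3 and 7 together they were 0.05 and 0.07. GC-adjusted, they were 0.02 with 12 of 23 higher and 0.09 with 12 of 16 higher. Unfolded protein response genes were at -0.01 with 13 of 27 higher, and between -0.06 and 0.03 with each library left out. Glycolysis and hypoxia genes were higher for 23 of 32, with a median of 0.02, or for 25 with a median of 0.11 GC-adjusted. As deposited 7 of them (21.9%) were higher in all 3 runs, against 13.1% of all genes. GC-adjusted these were 17 (53.1%), against 14.9% of all genes. Interferon response genes were at 0.03, chemokines and cytokines at -0.05, growth arrest genes at -0.07, immediate early genes at -0.07 and mechanosensitive channels at -0.02. With each SUN1L library left out in turn, the medians of the glycolysis, interferon, cytokine, growth arrest and immediate early lists took both signs, between -0.29 and 0.31. Those medians are as deposited, and leaving out 1 library parts the pair of its run. No member of any list described here was called.

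The response to the gel was not shown to differ between SUN1L and KDEL cells. The interaction of line and rigidity gave 0 genes at an adjusted p under 0.05 in limma (smallest adjusted p 1), and 145 (0.905%) at an unadjusted p under 0.05, or 333 (2.08%) with the block. In KDEL cells the same comparison gave 0 called genes and 219 (1.37%) at an unadjusted p under 0.05. As deposited, 13 of the 15 named genes lower in SUN1L cells were lower in all 3 KDEL runs. Of the 18 higher ones, 12 were higher in all 3. Among all genes 10.6% were lower and 10.1% higher in all KDEL runs. These shares are as deposited and cover genes of every level and GC content, while the named genes all lay above the median level. GC-adjusted, Tcf7l1 (0.05 in run 1), Sppl2b (0.06 in run 1) and Rtkn (0.05 in run 2) were no longer lower in every KDEL run. Likewise Mtr (-0.05 in run 3), Polr2b (-0.04 in run 2) and Gsta4 (-0.004 in run 3) were no longer higher in every KDEL run. Over 7951 genes above the median level, the gel differences of both lines correlated at -0.03, 0.52 and 0.62 in runs 1 to 3. GC-adjusted, these correlations across genes, which are not replicates, were -0.08, 0.36 and 0.61. Taken over all 12 libraries the correlation was 0.17, or 0.08 GC-adjusted. Id3 was lower by a log2 difference of -0.51, -0.41 and -0.57 in the KDEL runs, with an interaction of 0.01 and an unadjusted limma p of 0.967. Col6a2 was at -1.03, -0.50 and -0.69 there. Maoa was at -0.18, 0.28 and 0.39, with an interaction of 0.44 (SE 0.30) and an unadjusted limma p of 0.169. None of the 33 named genes had an interaction at an unadjusted limma p under 0.05 in the fit without the block. With it, 3 had, against 2.08% of all genes: Gsta4 (p 0.0186), Mpp1 (0.0267) and Rtkn (0.0461). The rules had chosen the named genes for their SUN1L difference, which is 1 part of the interaction, so that this count supports nothing. Mpp1 was at -0.36, 0.22 and 0.21 in KDEL runs 1 to 3, and library 8 of run 1 stood apart. None of the 3 genes passed after adjustment, which does not show that both lines respond alike.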

How the data were processed

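Polyadenylated RNA of 18 NIH 3T3 libraries was sequenced by the authors, who checked reads with FastQC, aligned them with TopHat2 2.0, took alignment metrics with SAMtools and quantified genes in AvadisNGS with scaling by the trimmed mean of M-values. The deposited table holds linear normalized signals, 1 for each gene in each library, and its lowest value is 1. The methods name mm9, but 87% of 20143 gene ends lay within 1000 bases of GRCm38.p6 RefSeq and 5.27% of 20541 within that of NCBIM37, so coordinates are given as GRCm38. The signals are not whole reads, and depth was estimated from the step between low values. Differences near 1 read pair (1.70 to 2.49 signal units) were not detectable.

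From these signals, log2(signal + 1) was fitted in R 4.3.3 (limma 3.58.1) using a variance trend and 4 groups of 3 libraries (SUN1L and KDEL, 1 and 308 kPa), over 16021 genes above 1 in at least 3 libraries. Tests were two-sided. A call needed a Benjamini-Hochberg adjusted p under 0.05 and 2-fold, and fold changes of low genes are understated by the pseudocount of 1. With 3 libraries against 3, an exact permutation test cannot go below 0.1. The labels number no replicates. The methods call them biological replicates, and runs were read from library numbers, where the deviations from the group mean correlated at 0.92, 0.90 and 0.84 over 8010 genes in the SUN1L libraries of runs 1 to 3. The fit with a block on runs is therefore given beside some of the results that it moves. It takes 1 shift per run for all 12 libraries. In run 1 the mean log2 level of mitosis genes was 11.38 in KDEL library 4 and 8.75 in KDEL library 8. A single shift does not describe both of these libraries. The GC adjustment removed from each library a lowess curve (span 0.3) on the GC content of the longest GENCODE vM1 transcript, known for 15552 of the 16021 genes. The models were tested on simulated data with changes of at least 2-fold and a reduced residual spread. That test does not show their power for the smaller differences described here.

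Genes are named as members of fixed lists, as the 12 per direction of largest difference at an unadjusted p under 0.05 without overlap above the median level, or as the 8 per direction of smallest p with the block, the same direction in 3 runs and at least 1.3-fold. The members and lists were chosen with earlier results of these data known. Library 34, whose labels disagree, and the inhibitor groups were not used here. The result of 1 further list is not reported here.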

Additional observations from a re-analysis of the deposited data

How the results depend on the processing

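No gene was called between stiff and soft gels in SUN1L cells under any of the 22 alternatives run, and the interaction gave 0 genes in 18 of 19 and 1 gene without a filter on low values. The number of genes at an unadjusted limma p under 0.05 (310) was 563 without a filter, 182 at a mean of at least 10, 1586 with array weights, 180 with the GC adjustment, and 284 to 703 with each SUN1L library left out in turn. With the replicate block it was 884, with the block on the 6 SUN1L libraries alone 1479, with the block and without libraries 3 and 7 660, and with the block and the GC adjustment 466. The share of these genes that were higher on the stiff gel was 32.3% as deposited, 19.2% at a mean of at least 10, 47.5% without libraries 3 and 7 and 58.9% with the GC adjustment. The number at least 2-fold (230) was 63 at a mean of at least 10, 27 with a pseudocount of 8, 501 with one of 0.1, 655 with array weights, 674 as ratios of arithmetic means, 464 without libraries 3 and 7 with or without the block, and 367 to 657 with 1 library left out. The cause of these shifts was not tested.

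Of 62 genes followed, 8 changed direction under some alternative, and with each library left out in turn their log2 differences ranged as follows. Pbld1 went from -0.12 to 1.02, Ctgf from -0.48 to 0.37, Cdk1 from -0.46 to 1.27 and Actg1 from -0.45 to 0.48, which was 0.055 without libraries 3 and 7 together. Acta2 went from -0.30 to 0.82, Cyr61 from -0.28 to 0.064, Tyms from -0.25 to 1.01 and Mki67 from -0.85 to 1.54. The other 54 kept their direction, and no gene passed the threshold. Of 210 alternatives for the medians of 21 lists, 90 moved by more than the spread between runs.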
